A study of Mus musculus with 3 samples.

Results

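Messenger RNA of 7 genes of cholesterol synthesis and its control was compared between fibroblasts, hepatocyte-like cells and hepatocytes of the mouse: Hmgcs1, Idi1, Fdft1, Sqle, Lss, Insig1 and Srebf2. The genes were taken by name, and their probes were found by matching the transcript accession of each probe to a RefSeq gene table. All 7 were measured, with 9 probes among 27076 named ones and as 7 of 20577 named genes. Although cholesterol uptake is part of the same control circuit, no receptor or carrier for uptake is among the 7; uptake genes are described from a separate list further on.

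The data came from 3 one-colour expression arrays, with 1 array per group and RNA pooled from 5 samples on each. MF were primary fibroblasts of SiO2-remodelled mouse spleens that were given LV-NC. iHep were hepatocyte-like cells obtained by giving such fibroblasts LV-3TF, and both were collected 14 days after transduction. PH were primary hepatocytes, used freshly isolated as the positive control. All 3 are labelled female. The labels do not spell out LV, NC or 3TF, and give neither strain nor age.

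With 1 array per group there is no replicate check and no test; "higher" and "lower" below describe these 3 arrays. A level is the log2 signal of a probe relative to the 75th percentile of its array, which is level 0, and a difference is one level minus another. A gene is called higher or lower where 2 arrays differ by at least 2-fold. Each member probe was printed as 1 spot, and the scanner software's own error of a spot was close to 10% of the signal, or 0.20 on the log2 scale for a difference. Replicate spots of other probes gave an SD of a difference between 0.128 and 0.141. Different probes of the same gene disagreed far more, by a pooled SD of 0.841 between iHep and MF, 1.108 between PH and MF and 1.092 between iHep and PH. Of the 21 differences computed for the 7 genes, 9 exceeded the probe SD of their comparison.

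The MF array was the dimmest, with a 75th percentile intensity of 544.3 against 3751.5 for iHep and 2080.9 for PH. It was also scanned apart from the other arrays, so in every comparison with MF the scan and the cells cannot be told apart; iHep and PH shared a scan. Hepatocyte markers checked the labels: 10 of 10 were well above background in PH, with a median level of 6.10. In iHep 9 of 10 were above background but their median level was -4.39, near the -5.35 of MF, and 1 of the 9 markers that could be compared was called higher in iHep than MF. Fibroblast markers had a median level of 5.29 in MF, -3.30 in iHep and 0.20 in PH. Other cell types were visible too: 9 of 9 macrophage markers were above background in MF and PH, with summed log2 levels of 6.46 and 6.60 against 1.08 in iHep, where Lyz2, C1qa and C1qc were not above background. On the PH array all 8 pancreatic acinar markers read between 4.40 and 6.56, and all 8 endothelial markers were above background. In bulk RNA, fewer cells of a type and less RNA per cell cannot be told apart, and the part of these other cells in the differences below was not tested.

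Cells make cholesterol from acetyl-CoA through the mevalonate pathway, which runs in the cytosol and endoplasmic reticulum and is especially active in liver. The pathway is controlled by SREBP-2, the product of Srebf2, a transcription factor made as an inactive precursor in the endoplasmic reticulum membrane. When sterols are scarce, the escort protein SCAP carries the precursor to the Golgi, where proteases release the active part; when sterols are plentiful, INSIG proteins hold SCAP back. The released factor binds sterol regulatory elements, usually beside NF-Y and Sp1 sites, in the promoters of nearly all genes of the pathway and of Insig1 and Srebf2 themselves.

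Promoters show what the genes share apart from their levels. RefSeq windows (GRCm38.p6) were found for 5 of the 7 genes. They are shown for the 250 bases before the transcription start. Capitals mark matches on either strand to the sterol regulatory element TCACNCCAC, the NF-Y box CCAAT and the GC box GGGCGG, so that a match on the other strand reads ATTGG for the NF-Y box and CCGCCC for the GC box; no matches overlapped. The genes whose level was highest in PH come first, followed by those whose level was lowest there.
Hmgcs1, chr13:119690101-119690350, plus strand: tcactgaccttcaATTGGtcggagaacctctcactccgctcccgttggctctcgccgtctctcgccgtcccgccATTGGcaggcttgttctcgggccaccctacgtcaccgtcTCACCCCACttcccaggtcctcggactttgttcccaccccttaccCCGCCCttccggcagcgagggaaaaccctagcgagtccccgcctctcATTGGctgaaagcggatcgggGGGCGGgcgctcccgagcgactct
Idi1, chr13:8885356-8885605, plus strand: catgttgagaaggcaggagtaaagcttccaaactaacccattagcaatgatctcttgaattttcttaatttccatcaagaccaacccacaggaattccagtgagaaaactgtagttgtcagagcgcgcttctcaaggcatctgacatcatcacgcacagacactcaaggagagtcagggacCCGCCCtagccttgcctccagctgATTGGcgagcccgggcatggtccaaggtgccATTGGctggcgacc
Insig1, chr5:28071162-28071411, plus strand: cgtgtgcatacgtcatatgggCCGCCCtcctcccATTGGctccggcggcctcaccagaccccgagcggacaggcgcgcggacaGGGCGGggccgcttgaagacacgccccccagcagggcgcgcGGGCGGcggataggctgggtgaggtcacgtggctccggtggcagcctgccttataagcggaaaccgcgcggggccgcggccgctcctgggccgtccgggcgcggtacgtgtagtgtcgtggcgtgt
Lss, chr10:76531355-76531604, plus strand: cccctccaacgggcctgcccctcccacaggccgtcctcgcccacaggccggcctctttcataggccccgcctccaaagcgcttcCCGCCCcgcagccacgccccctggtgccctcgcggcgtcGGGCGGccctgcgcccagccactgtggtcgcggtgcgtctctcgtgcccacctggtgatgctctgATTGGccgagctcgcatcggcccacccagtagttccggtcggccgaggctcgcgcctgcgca
Srebf2, chr15:82147019-82147268, plus strand: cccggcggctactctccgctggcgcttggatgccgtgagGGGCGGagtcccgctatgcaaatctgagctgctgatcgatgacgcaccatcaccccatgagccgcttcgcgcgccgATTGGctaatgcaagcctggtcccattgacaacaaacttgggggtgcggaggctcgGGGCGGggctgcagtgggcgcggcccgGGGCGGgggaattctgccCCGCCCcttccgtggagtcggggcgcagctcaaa
The NF-Y box was present in 5 of 5 windows, against 33.8% of all 32851 promoter windows of this length, and the GC box in 5 of 5, against 32.7%. The exact sterol element was found in the Hmgcs1 window, 137 to 129 bases before the start, and in 1.05% of all windows; for Idi1, Insig1, Lss and Srebf2 these letters were not in the window. Hmgcs1 had 3 NF-Y boxes and Idi1 2, whereas Insig1, Lss and Srebf2 had 1 each, and Srebf2 had 4 GC boxes.

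Hmgcs1 and Idi1, which act before squalene, were highest in hepatocytes. Hmgcs1 encodes the cytosolic HMG-CoA synthase, which builds the precursor of mevalonate. Its spot read 8122 in MF, 20307 in iHep and 45158 in PH, which after scaling gave levels of 3.90, 2.44 and 4.44. Hmgcs1 was therefore lowest in iHep, 2.76-fold below MF (log2 difference -1.46 ± 0.20, software error, n = 1 array per group) and 4.01-fold below PH, while PH stood 1.45-fold above MF. Idi1 encodes the isomerase that interconverts the isoprenoid building blocks made from mevalonate. It had levels of 3.51 in MF, 3.31 in iHep and 4.66 in PH. PH was 2.22-fold above MF and iHep was 2.55-fold below PH, but MF and iHep differed by no more than the software error.

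Fdft1, Sqle and Lss carry the carbon from farnesyl diphosphate to the first sterol. Fdft1 encodes squalene synthase, which commits the pathway to sterols. Its level was 1.55 in MF, -0.59 in iHep and 1.08 in PH. iHep was 4.42-fold below MF and 3.19-fold below PH; a second, much dimmer probe gave the same order with smaller gaps, 1.98-fold and 1.49-fold. Sqle encodes squalene epoxidase, a control point whose enzyme is degraded when cholesterol accumulates. It read 4.07 in MF, 3.53 in iHep and 3.07 in PH, so that it was highest in the fibroblasts and lowest in hepatocytes, with a difference of -1.0 between PH and MF that lay just inside the 2-fold threshold. Lss encodes lanosterol synthase, which closes the sterol rings. Lss was at -0.70 in MF, -0.41 in iHep and -1.48 in PH; iHep was 2.10-fold above PH, and 1.23-fold above MF, a gap below 2 software errors (0.41).

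The regulators stood on opposite sides in hepatocytes, Insig1 highest and Srebf2 lowest. Insig1, the sterol-regulated brake on SREBP processing and itself an SREBP target, stood at -1.42 in MF, -1.61 in iHep and 0.12 in PH. PH was 2.92-fold above MF and 3.31-fold above iHep, whereas MF and iHep lay within the software error of each other. Srebf2 stood at -0.58 in MF, -0.33 in iHep and -1.53 in PH by its brighter probe, so PH was 1.93-fold below MF and iHep 2.29-fold above PH. Its other probe read -1.10, -2.48 and -3.01. Both probes put PH lowest, but they disagreed on iHep against MF, with differences of 0.25 and -1.38, so no direction is given for Srebf2 in that comparison.

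**Figure D1:**
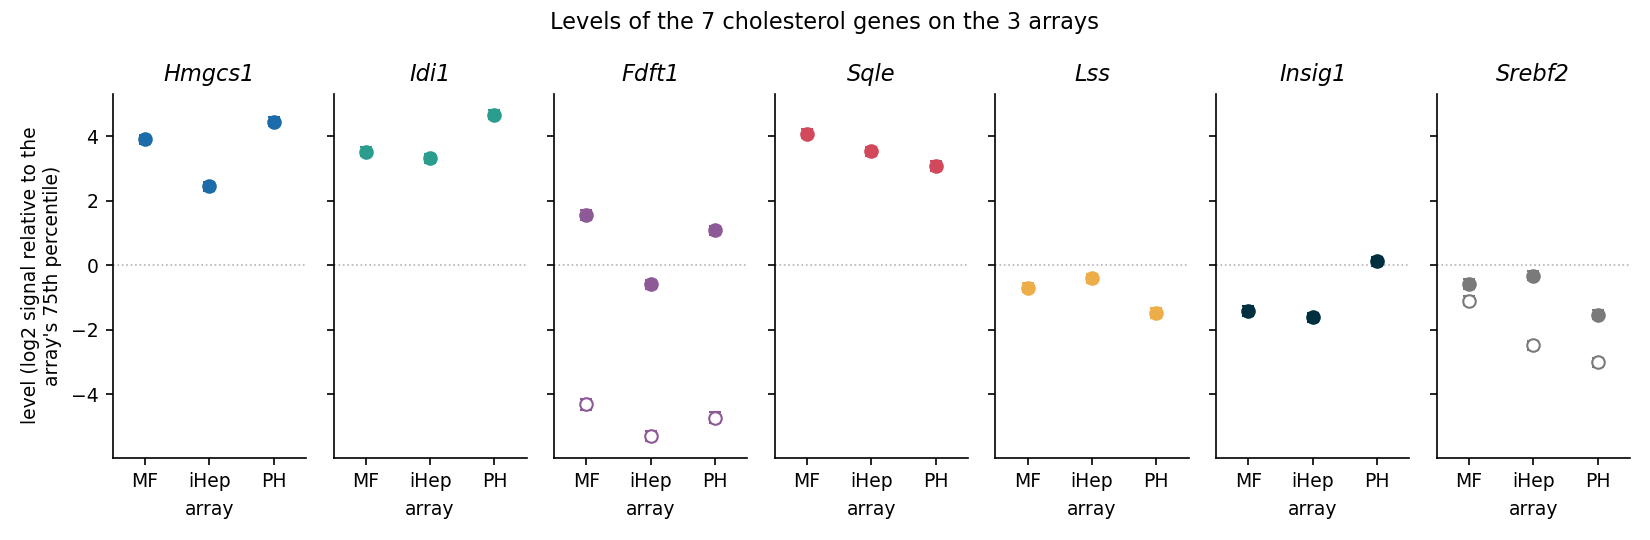
Level of each gene (log2 signal, with 0 at the 75th percentile of its array, drawn as a dotted line) on the MF, iHep and PH arrays, 1 array per group. Filled points are the probe used, open points a second probe, and bars, mostly hidden by the points, the scanner software's error; Hmgcs1, Idi1 and Insig1 are highest in PH, while Sqle, Lss and Srebf2 are lowest there.

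The first comparison sets the cells that received LV-3TF against those that received LV-NC. Hmgcs1 and Fdft1, 2 of the 7, were called lower in iHep, and 0 of 7 were called higher. By their other probes Fdft1 lay just inside the threshold, at -0.98, and Srebf2 beyond it, at -1.38. Over all 17175 genes compared, 23.5% were lower and 19.8% higher by this measure. The median difference of the 7 was -0.20, against 0.09 for all genes. Idi1, Sqle, Lss, Insig1 and Srebf2 lay within 2-fold, with differences between -0.54 and 0.30 by the probes used. Quantile normalization turned the small difference of Idi1 from -0.20 to 0.04.

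The second comparison sets hepatocytes against the fibroblasts. PH was called higher for 2 of 7 genes, Insig1 and Idi1, where 30.9% of 17787 genes were, and lower for 0 of 7, where 25.4% of genes were. Sqle, Srebf2 and Lss came closest on the low side, with differences of -1.0, -0.95 and -0.78, and Hmgcs1 and Fdft1 stood between, at 0.54 and -0.47. The median was -0.47, against 0.12 for all genes. The gap between the extremes, Insig1 and Sqle, was 2.54 on the log2 scale, or 5.83-fold, and does not depend on how one array is scaled to another by a constant. In the authors' deposited values 0 of the 5 genes present were called higher, since Idi1 read 0.87 there and Insig1 is one of the genes not in that table, and 2 were lower.

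The third comparison, between iHep and PH on arrays of 1 scan, held the widest spread. Hmgcs1, Insig1, Fdft1 and Idi1 were called lower in iHep, 4 of 7 where 36.0% of 18005 genes were, and Srebf2 and Lss higher, 2 of 7 where 23.2% were. By their other probes Fdft1 and Srebf2 lay inside the threshold, at -0.58 and 0.52. Sqle lay 1.37-fold higher in iHep. The median was -1.35, against -0.30 for all genes, and the extremes, Srebf2 and Hmgcs1, were 3.20 apart, or 9.20-fold, by the probes used. Over the authors' values, which lack Hmgcs1 and Insig1, the median was 0.87. Over the other 5 genes alone the main setting gave 0.46, so the missing genes made up part of the shift and not all of it. All 3 comparisons share arrays, so they are views of the same 3 values per gene.

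**Figure D2:**
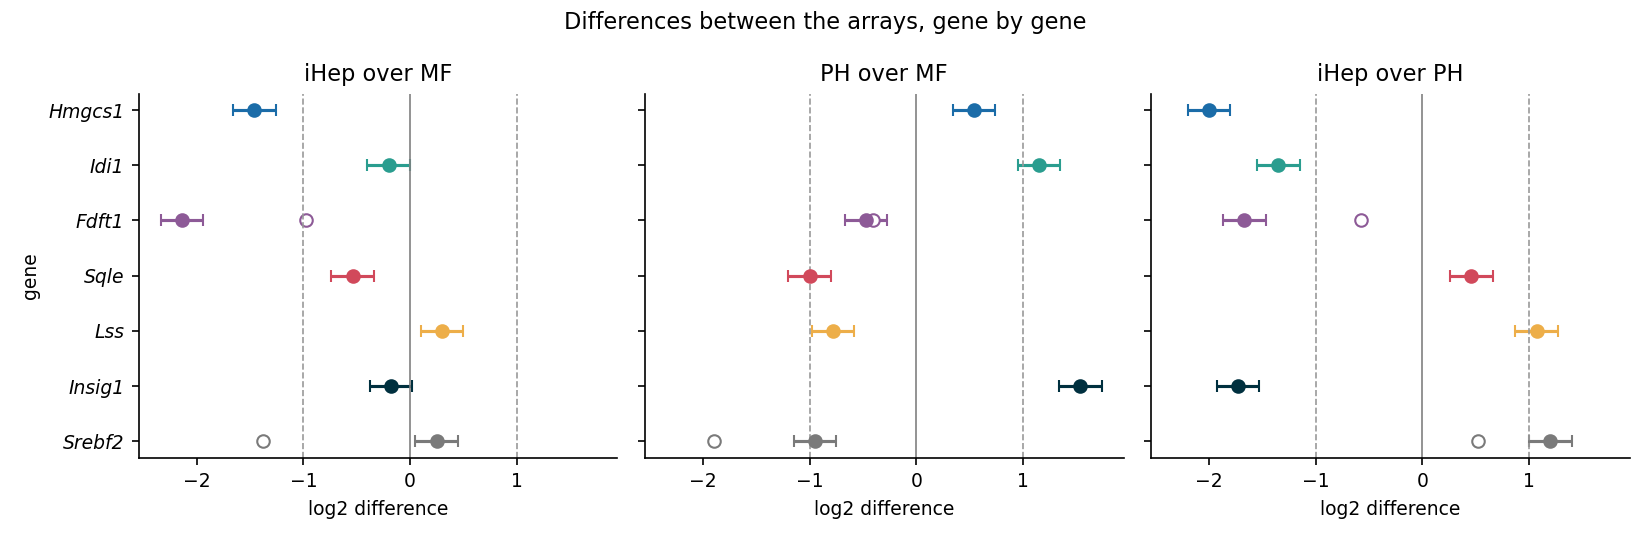
Log2 difference of each gene, 1 array per group, in a panel for each pair of arrays. Filled points are the probe used with the software's error as bars, open points a second probe, and dashed lines the 2-fold threshold; Fdft1 and Hmgcs1 lie farthest left for iHep over MF, at -2.14 and -1.46, and Insig1 farthest right for PH over MF, at 1.54.

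Set among all genes, the 7 lay away from both extremes. Their differences lay between percentiles 11.6 (Fdft1) and 56.4 (Lss) of all genes for iHep over MF, and between 25.6 (Sqle) and 71.0 (Insig1) for PH over MF, and between 23.4 (Hmgcs1) and 79.1 (Srebf2) for iHep over PH. Taking both differences against MF as a position, Lss and Srebf2 were the closest pair, 0.18 apart, followed by Idi1 and Insig1 at 0.39, and Fdft1 and Insig1 were the farthest, at 2.81. These positions use the brighter probe, and that of Srebf2 rests on its unsettled difference between iHep and MF, 0.25 by this probe and -1.38 by the other. Genes outside the 7 also lay close to them: of 13927 genes well above background on all 3 arrays, 143 lay within 0.2 of Srebf2, 52 of Insig1 and 24 of Fdft1. The nearest gene was 9430037G07Rik for Hmgcs1 (distance 0.017), Chst15 for Idi1 (0.014), Rcor3 for Sqle (0.024), Ctu1 for Lss (0.010), Malt1 for Insig1 (0.026) and Sp3os for Srebf2 (0.011). Nearest to the median of the 7 were Klhl25, Tnfaip1, Klhl11, Eif3g and Amn, at 0.008 to 0.020. These likenesses rest on 3 arrays.

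**Figure D3:**
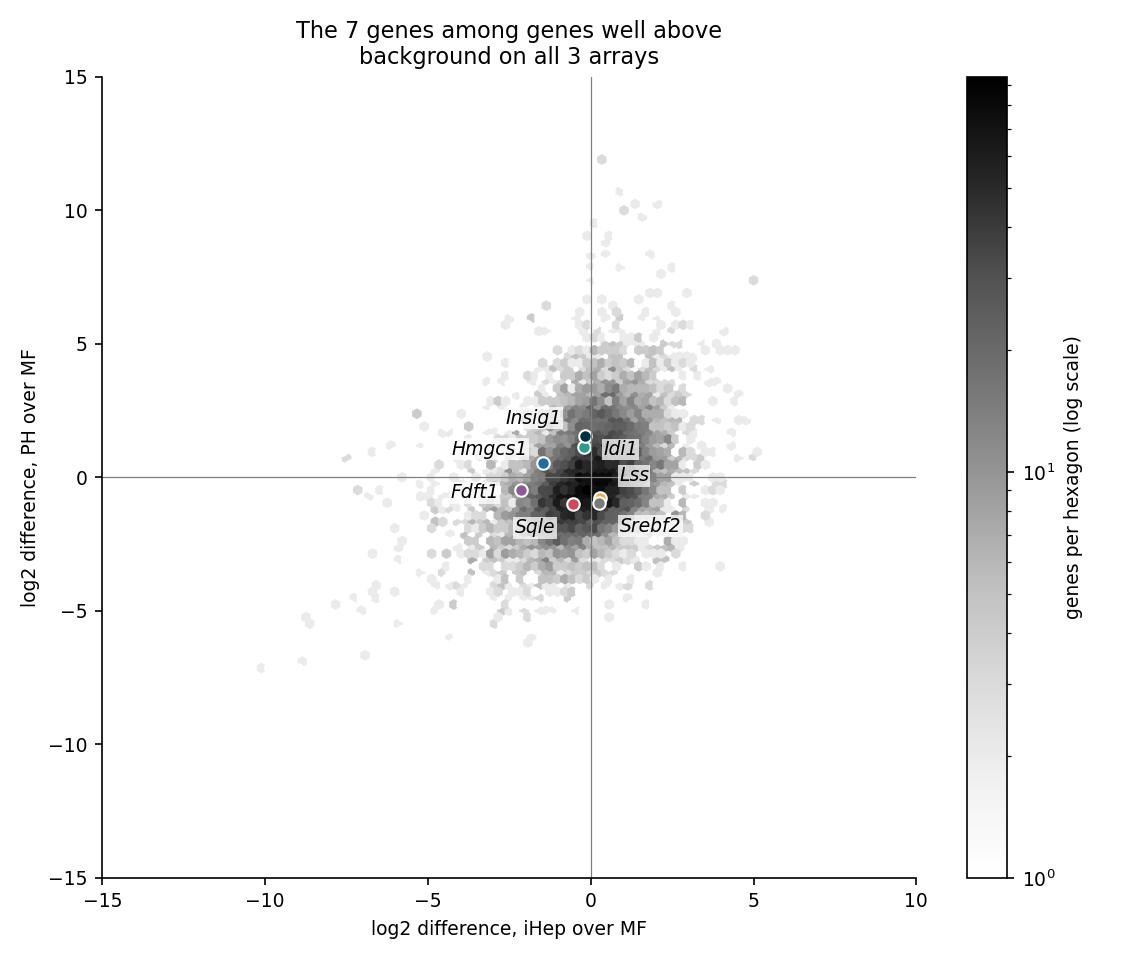
Log2 difference of PH over MF (vertical) against iHep over MF (horizontal) for genes well above background on all 3 arrays, as hexagons shaded by the number of genes on a log scale, with the 7 genes as coloured points. The 7 sit within the bulk of the cloud, with Fdft1 and Hmgcs1 to the left and Idi1 and Insig1 above the others.

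The remaining enzymes of the route show whether the 7 stand for it. Among 9 other mevalonate and isoprenoid enzymes, paralogues included, 1 was called higher and 3 lower in iHep than MF; their median was -0.55. Mvd, which makes isopentenyl diphosphate, was 3.42-fold lower, and Acat2, the cytosolic thiolase that feeds Hmgcs1, 2.79-fold lower. Pmvk, phosphomevalonate kinase, was the exception at 2.25-fold higher, and its other probe gave 1.28 on the log2 scale against 1.17. In PH over MF 3 were higher and 2 lower, and the median of 0.42 turned to -0.04 under quantile normalization, -0.13 under normexp, -0.07 with probes averaged and -0.12 over the 7 genes with probes above background on all arrays. Acat2 was 28.3-fold higher in PH than MF (levels 4.26 and -0.56), Mvd 3.02-fold lower and Ggps1, which makes the longer isoprenoid for protein prenylation, 3.20-fold lower. For iHep over PH, 3 were lower and 1 higher, with a median of -0.95; Acat2 was 78.9-fold lower and Ggps1 2.36-fold higher. In the authors' values 6 of these 9 genes had medians of 0.33 for iHep over MF and 0.23 for iHep over PH. Over all genes, 19.8% were higher and 23.5% lower in iHep than MF, and 30.9% and 25.4% in PH than MF. For iHep over PH these shares were 23.2% and 36.0%.

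Paralogues of 3 members were also measured. Insig2, the other INSIG gene, was 5.15-fold higher in PH than MF and 4.03-fold lower in iHep than PH, the same directions as Insig1. Idi2, a paralogue of Idi1, was dim, at -5.83 in PH and -6.60 in iHep. Srebf1, like Idi2 chosen after its values were seen, read -1.33 in MF, -1.77 in iHep and -0.73 in PH; it was 2.06-fold lower in iHep than PH, where Srebf2 was higher, but the authors' values put that difference at -0.79.

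Most of the later sterol steps were called lower in iHep than PH in the main setting. Of 10 other post-squalene enzymes 7 were called lower and 1 higher, where 36.0% and 23.2% of all genes were, and the median was -1.73. In the authors' values, which hold 8 of the 10, 4 were lower and 1 higher (median -1.09). Tm7sf2, a sterol reductase, was 19.9-fold lower. PH was called higher than MF for 5 of the 10 and lower for none, where 30.9% and 25.4% of all genes were. The median was 1.16. With probes averaged 5 were higher and 1 lower, and in the authors' values 4 of 8 were higher and 1 lower. Tm7sf2 was 6.70-fold and Dhcr7, another reductase late in the route, 6.46-fold higher in PH than MF. Against MF, iHep had 2 higher and 3 lower, where 19.8% and 23.5% of all genes were. The median of -0.39 turned to 0.02 in the authors' values. Hsd17b7, a ketosteroid reductase of this route, was 3.89-fold lower. Cyp51, lanosterol demethylase and the step after Lss, was 2.34-fold higher in iHep than MF, and Lbr 3.84-fold higher. Lbr and Tm7sf2 encode enzymes for the same reduction, and they stood on opposite sides of iHep: Lbr was 4.38-fold higher in iHep than PH. Lbr also anchors chromatin to the nuclear envelope.

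Counting the 5 enzymes among the 7 with these 19, 3 of 24 were called higher and 8 lower in iHep than MF, 9 were higher in PH than MF and 2 lower, and 3 were higher in iHep than PH and 13 lower. Over all genes the shares were 19.8% and 23.5%, 30.9% and 25.4%, and 23.2% and 36.0%. The medians were -0.49, 0.76 and -1.26, with the same signs under the other settings. In the authors' values, which hold 18 of the 24, the balance of calls for iHep over MF turned, with 5 higher, 4 lower and a median of -0.08, and for iHep over PH the calls were 3 higher and 6 lower (median -0.52). The 7 genes alone had a median on the other side of 0 for PH over MF, at -0.47, with Sqle, Lss, Fdft1 and Srebf2 below 0.

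Genes for processing SREBP or turning over the enzymes had medians near 0. Of 10 such genes 2 were called higher and none lower in iHep than MF, where 19.8% and 23.5% of all genes were. For PH over MF 1 was higher and none lower, where 30.9% and 25.4% of all genes were. For iHep over PH 2 were higher and 3 lower (1 and 5 with probes averaged), where 23.2% and 36.0% of all genes were. The medians were 0.28, 0.13 and -0.10, and each changed sign under at least 1 alternative. Scap, the sterol-sensing escort, stood at 2.96 in MF, 2.02 in iHep and 3.13 in PH, 2.17-fold lower in iHep than PH (a log2 difference of -0.94 in the authors' values, inside the threshold). Erlin1, an endoplasmic reticulum membrane protein, was 3.05-fold higher in iHep than MF, and its partner Erlin2 2.57-fold higher in iHep than PH. Mbtps2, the protease of the second cut of SREBP, was 2.10-fold higher in iHep than MF at a low iHep level of -4.08, and under normexp that difference was -0.76.

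Uptake and intracellular movement genes spread widely in both directions. Among 13 of them, 2 were called higher and 4 lower in iHep than MF, where 19.8% and 23.5% of all genes were. For PH over MF 4 were higher and 4 lower, where 30.9% and 25.4% of all genes were. For iHep over PH 1 was higher and 5 lower, where 23.2% and 36.0% of all genes were. The medians were -0.21, -0.14 and -0.12, the last of which was 0.16 under quantile normalization. Scarb1, the receptor for high-density lipoprotein, read 1.78 in MF, 3.58 in iHep and 4.57 in PH, 3.47-fold higher in iHep than MF and 6.87-fold higher in PH. Vldlr, a receptor for triglyceride-rich lipoproteins that liver normally carries at low levels, was 3.48-fold higher in iHep than MF and 17.8-fold lower in PH, so that iHep stood 61.9-fold above PH; its other probe gave a difference of 0.26 for iHep over MF. Lrp1, an endocytic receptor of fibroblasts, hepatocytes and macrophages, was 13-fold lower in iHep than MF. Npc2, which carries cholesterol out of lysosomes, was 3.49-fold lower in iHep than MF and 6.61-fold lower in PH. Stard4, a sterol carrier and SREBP target, was 11.4-fold lower in iHep than PH.

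Genes for storing, exporting and converting cholesterol stood mostly highest in PH. Of 11 efflux, esterification and LXR genes 8 were called lower and 2 higher in iHep than PH (median -1.98), where 36.0% and 23.2% of all genes were. In PH 5 were higher and 1 lower than MF (median 0.87), where 30.9% and 25.4% of all genes were. For iHep over MF 9 could be compared, with 2 higher and 2 lower, where 19.8% and 23.5% of all genes were. Their median of -0.01 was 0.03 under quantile normalization, 0.09 under normexp and 0.80 in the authors' values over 3 genes. Abcg5, which exports sterols into bile, was at 2.03 in PH; neither MF nor iHep read well above background, and they lay at least 322-fold and 653-fold below PH. Lcat, the plasma enzyme that esterifies cholesterol, was 158-fold higher in PH than MF. Abca1 and Abcg1, cholesterol exporters of macrophages and other cells, were 3.21-fold and 2.59-fold lower in iHep than MF. Of the 9 macrophage markers compared, 8 were called lower in iHep than MF, and their part was not tested. Soat2, the acyltransferase of hepatocytes and enterocytes, was 9.28-fold higher in iHep than MF at levels of 1.62 and -1.60, and 3.76-fold below the PH level of 3.53. Soat1, its widely expressed counterpart, stood the other way, 5.01-fold higher in iHep than PH. Nr1h3, the sterol-sensing nuclear receptor LXR alpha, was 2.04-fold higher in iHep than MF, or 0.75 on the log2 scale with its probes averaged.

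Cholesterol hydroxylases, which start bile acid and oxysterol formation, had the largest median gaps of these lists between PH and the other arrays. In PH 5 of 6 were called higher than MF and 1 lower, where 30.9% and 25.4% of all genes were. The median was 5.33, or 4.79 where bounds replace the measured differences. In iHep 5 of 6 were called lower than PH and none higher, where 36.0% and 23.2% of all genes were. The median for iHep over PH was -6.50. For iHep over MF, 2 of the 5 compared were lower and none higher, where 23.5% and 19.8% of all genes were. The median was -0.95. Under normexp 5 of 5 were lower with a median of -1.84, and under quantile normalization 2 were lower and 1 higher. Cyp27a1, which opens the alternative bile acid route, was 127-fold higher in PH than MF, and Cyp8b1 at least 134-fold, in the main setting. On the log2 scale these were 6.99 and 7.07, and under normexp 4.85 and 3.83. Cyp7b1, an oxysterol hydroxylase, was at 0.18 in MF and 3.86 in PH. Its iHep spot did not clear the background, so in the main setting it lay at least 182-fold below MF there. That is a log2 bound of -7.51, and under normexp the difference was -5.94. Ch25h, an oxysterol enzyme of macrophages, was 11.9-fold lower in iHep than MF and 15.6-fold lower in PH. Cyp7a1, the rate-limiting enzyme of bile acid synthesis, read -0.40 in PH and -6.29 in iHep, whereas its MF spot did not clear the background.

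**Figure D4:**
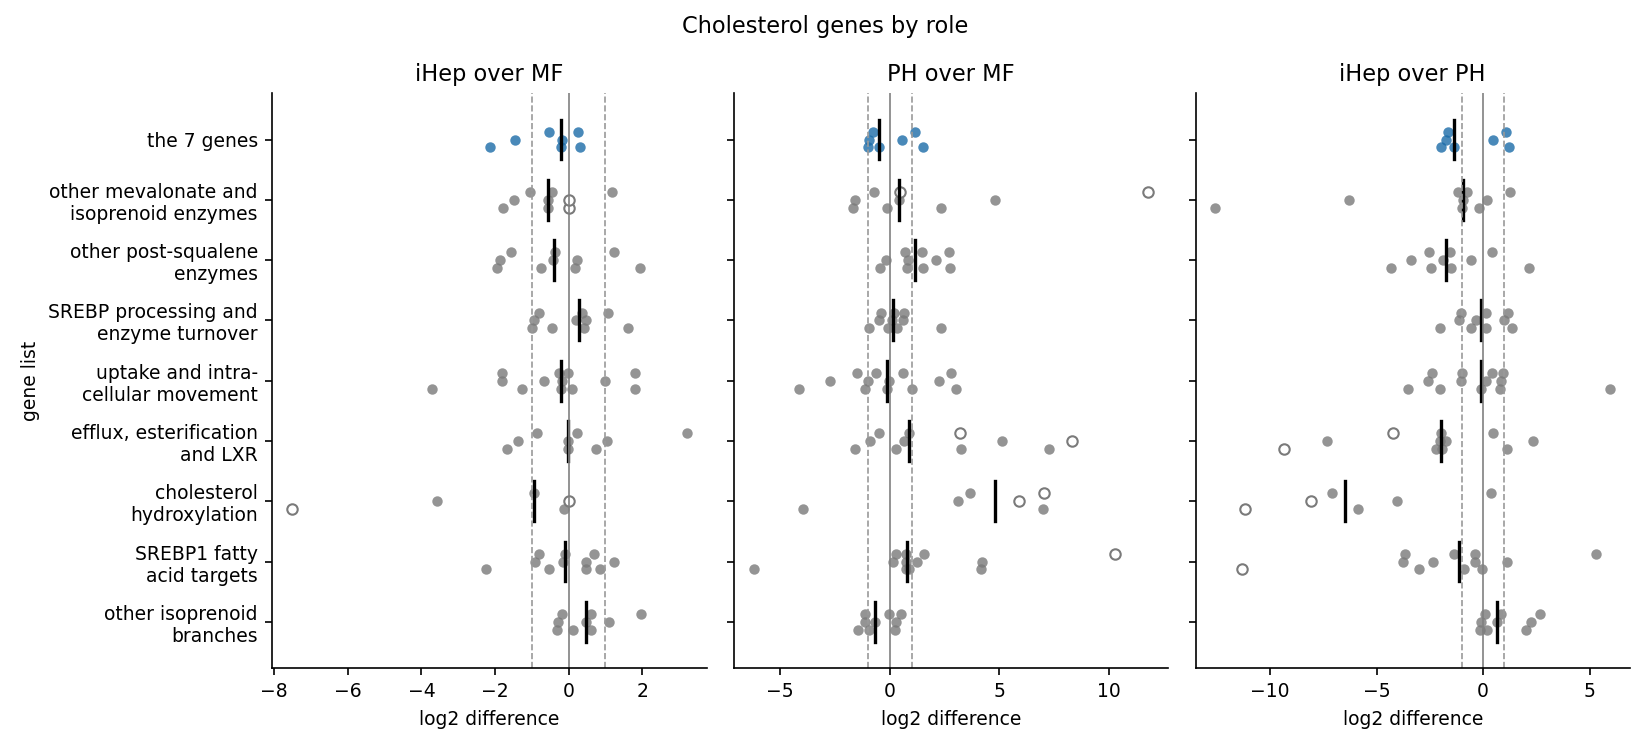
Log2 differences of the genes of each list (rows) in a panel for each pair of arrays, 1 point per gene; filled points were well above background on both arrays, open points are bounds, black bars the medians of the points drawn and dashed lines the 2-fold threshold. The horizontal scales differ between panels; the 7 genes span 2.44, 2.54 and 3.20, whereas Cyp7b1, a cholesterol hydroxylase, lies at -7.51 and -11.19 in the left and right panels.

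Processing moved some of these values more than spot noise did. Over the 7 genes, each difference was recomputed under up to 8 other settings. The signs of Hmgcs1, Fdft1, Sqle, Lss and Insig1 were the same under each of them in all 3 comparisons. Averaging probes could not change a gene with 1 probe, and the filter for probes above background could change none of the 7. Idi1 and Srebf2 changed sign, and did so for iHep over MF alone: Idi1 lay between -0.20 and 0.04 and Srebf2 between -1.38 and 0.28. For PH over MF, Srebf2 ranged from -2.41 to -0.92, the lowest value being that of the authors' table, which holds its dimmer probe alone. Insig1 ranged from 1.38 to 1.57 and Hmgcs1 for iHep over PH from -2.01 to -1.65.

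**Figure D5:**
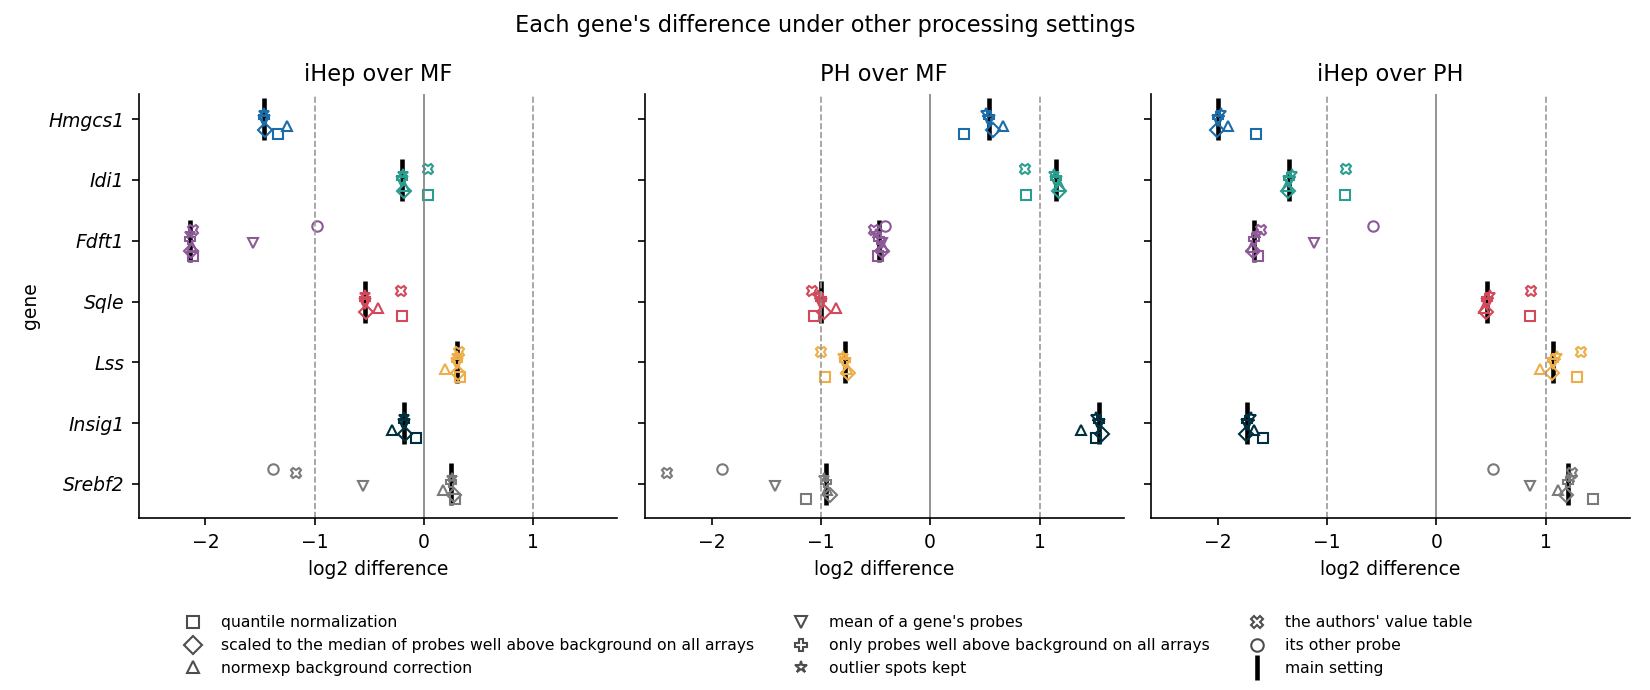
Log2 difference of each gene under the main setting (black bar) and each other processing setting (symbols in the key), in a panel for each pair of arrays; dashed lines mark 2-fold. Most symbols lie on or near the bar, and those of Srebf2 spread from -1.38 to 0.28 for iHep over MF and from -2.41 to -0.92 for PH over MF.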

How the data were processed

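The deposited scanner files hold spot intensity on a linear scale, made with Agilent Feature Extraction 11.0.1.1 on a design annotated on mm9, per the file headers; the submitters' processing notes name version 9.1. The deposited intensity had background subtracted and spatial trends removed on each array, with no scaling from one array to another, per the file headers. The authors' value table holds log2 values, deposited with scale and centring unstated (column medians 7.01 to 7.07); it correlated with the log2 scanner values at 0.9943 to 0.9982, its differences ran the same way (slopes 0.90 to 0.94), and it served as an alternative.

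Levels are log2 processed intensity minus the array's 75th percentile over non-control spots without outlier marks (190, 230 and 383 marked spots left out; none saturated). Accessions were matched to RefSeq (GRCm38.p6), for names and promoter sequences; 68.7% of 39429 probes were named. The brightest probe stands for a gene. A gene counted as above background where any of its probes was; where that held on 1 of 2 arrays, the fold is a bound ("at least"), taken against the dim reading or the array's lowest level well above background, whichever is higher (-6.30, -7.32 and -6.89). Such bounds belong to the main setting, and normexp gave smaller differences for some genes. A list's median is over measured differences.

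Alternatives were quantile normalization, scaling by the median of probes that every array detected, normexp (limma 3.58.1 in R 4.3.3, offset 50, on median signals), the authors' table, averaged probes, a member's other probe, only probes above background on all arrays, outlier spots kept, and thresholds of 1.5-fold and 4-fold. RNA was extracted with a blood RNA kit and globin reduction, per the labels' protocols. Calculations used Python 3.11.15, and the steps were tested on simulated data. The members, lists and rules were chosen with earlier results of these data known. Named genes are the 7, for each list up to 2 with the largest difference in each direction and comparison, and the nearest in pattern; some genes taken by this rule are counted and not reported by name here.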

Additional observations from a re-analysis of the deposited data

How the results depend on the processing

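With 1 array of pooled RNA per group nothing could be left out and no paired analysis was possible. The labels also give no replicate numbers. The number of arrays and the agreement between probes limit the precision. Counts of the 7 genes changed as follows. For iHep over MF, 1 gene was lower at 4-fold. In the authors' values the count of lower genes stayed at 2, but they were Fdft1 (-2.11) and Srebf2 (-1.17), as Hmgcs1 is not in that table. For PH over MF, the count of higher genes was 1 under quantile normalization, 0 in the authors' values and 0 at 4-fold, and the count of lower genes, 0 in the main setting, was 2 under quantile normalization, 2 in the authors' values, 1 with probes averaged, 1 with outlier spots kept and 3 at 1.5-fold, Sqle lying at the threshold. For iHep over PH, the count of higher genes was 1 under normexp, 1 with probes averaged and 0 at 4-fold, and that of lower genes 3 under quantile normalization, 1 in the authors' values and 1 at 4-fold. Medians that moved by more than the SD from replicate spots were, for iHep over MF, -0.07 under quantile normalization and -0.54 with probes averaged; for PH over MF, -1.0 in the authors' values; and for iHep over PH, -0.84 under quantile normalization, -1.12 with probes averaged and, turned in sign, 0.87 in the authors' values, which lack Hmgcs1 and Insig1. Of 147 alternative values of single genes, 142 stayed within the SD between probes and 5, all of Fdft1 or Srebf2, moved beyond it. That SD, 0.841 to 1.108, is a wide limit, and some of the 147 values could not move. All 27 probe readings of the 7 genes were above background, so the background filter changed none. Averaging probes changed none of the 5 genes with 1 probe. Normexp shifted the median of all genes by -0.73 for iHep over MF and -0.63 for PH over MF, and quantile normalization by 0.51 for iHep over PH.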

Other observations

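The fatty acid arm of SREBP control, run mainly by SREBP-1, was also measured. Of 12 fatty acid genes 5 were called higher and 1 lower in PH than MF (median 0.81), where 30.9% and 25.4% of all genes were. In iHep 6 were lower and 2 higher than PH (median -1.14), where 36.0% and 23.2% of all genes were. For iHep over MF 11 could be compared, with 1 higher and 1 lower, where 19.8% and 23.5% of all genes were. The median of -0.10 turned to 0.02 under quantile normalization and 0.01 in the authors' values. Thrsp, a lipogenic factor of liver, was at 3.98 in PH, at least 1250-fold above MF, and neither its MF nor its iHep spot cleared the background. Acss2, which makes cytosolic acetyl-CoA from acetate, was 18.4-fold higher in PH than MF. Scd2, a desaturase of tissues other than adult liver, was 74-fold lower in PH than MF and 39.4-fold higher in iHep than PH. Fads2, a polyunsaturated fatty acid desaturase, was 4.74-fold lower in iHep than MF, and Elovl6, an elongase, 2.35-fold higher.

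Other users of isoprenoids were also measured. Of 9 genes for dolichol, ubiquinone and protein prenylation 3 were called higher and none lower in iHep than PH (median 0.63), where 23.2% and 36.0% of all genes were, and 3 lower and none higher in PH than MF (median -0.68). For iHep over MF 2 were higher and none lower, and the median of 0.47 turned to -0.15 under normexp. Over all genes 19.8% were higher and 23.5% lower in iHep than MF, and 30.9% and 25.4% in PH than MF. Pdss1, a subunit of the enzyme that makes the ubiquinone tail, stood at -3.25 in MF, -1.28 in iHep and -3.93 in PH, 3.92-fold higher in iHep than MF and 6.28-fold higher than in PH. Fntb, a subunit of protein farnesyltransferase, was 2.70-fold lower in PH than MF. Cell cycle markers differed between the arrays as well. In iHep 9 of 10 were called higher than in MF and 10 of 10 higher than in PH. Their summed log2 levels were 4.02 in MF, 5.92 in iHep and 3.13 in PH. The part of cell division in the differences of the isoprenoid genes was not tested.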
